A study of Mus musculus with 4 samples.

Results

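RNA polymerases copy DNA into RNA, and mammalian nuclei hold 3 of them. Pol I makes the precursor of ribosomal RNA, Pol II makes messenger RNA and many small nuclear RNAs, and Pol III makes transfer RNA, 5S ribosomal RNA and other short transcripts. Each is a complex of a catalytic core formed by its pair of largest subunits, a set of small subunits shared with the other enzymes, and its own peripheral subunits. Mitochondrial DNA is copied by a separate single-chain enzyme, Polrmt. The genes described here are those whose symbol starts with Polr1, Polr2 or Polr3, plus Polrmt. By this rule the array held probes for 27 genes, among 37140 genes and unnamed transcripts in all. These were 3 subunits specific to Pol I, 2 shared by Pol I and Pol III, 5 shared by all 3 enzymes, 6 genes of Pol II, 10 of Pol III, and Polrmt. The Pol II genes Polr2a, which encodes the largest subunit, and Polr2d, a stalk subunit, had no probe matched to them and were not analysed here.

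The cells were lymphoid-primed multipotent progenitors (LMPP) from the bone marrow of mice that carry a knocked-in green fluorescent protein reporter of IRF8, a transcription factor of dendritic cell and monocyte development. The sort took cells positive for Sca-1, CD34, CD117 and CD135 and negative for CD150, IL-7R and lineage markers, and the reporter split them into IRF8-GFP negative and IRF8-GFP positive groups. Both groups carry the reporter allele and neither was treated. Strain, age, sex and the number of animals per sample are not given in the sources used here. There were 2 arrays per group, called replicates 1 and 2 here after the number in their labels (exp1, exp2). Nothing in the labels says that they came from separate animals, so p-values reflect spread among arrays only, and that spread may be technical. The comparison sets LMPP that show the IRF8 reporter against LMPP that do not.

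Values are log2 signals relative to the 75th percentile of each array, listed as negative replicates 1 and 2, then positive replicates 1 and 2. A difference is positive minus negative. Irf8 read 1.64 and 1.601 on negative arrays against 5.13 and 5.22 on positive ones, which matches the labels. The groups differed within the sorting gate. Il7r, the transcript of the receptor the cells were sorted to lack, read -1.57 and -1.54 against 0.86 and 0.83 and rose 5.26-fold (adjusted p = 0.000835). Ly6a (Sca-1) was 1.94-fold lower (adjusted p = 0.00222) and Kit (CD117) 1.31-fold lower (adjusted p = 0.00769), the latter call being lost without either negative array. Cd34 and Flt3 (CD135) rose by 0.26 and 0.25, with signs that turned under 4 scalings, and Slamf1 (CD150) was above background on 0 arrays. Of 16 markers of excluded lineages 15 had a probe and 7 were tested, of which 2 rose (Adgre1 and Klrb1c) and 2 fell (Hba-a1 and Epor). Another 7, Cd3g, Cd8a, Ms4a1, Ngp, Ltf and Ncr1 among them, were above background on 0 arrays. The summed linear level of all 15, in units of the 75th percentile signal, was 4.26 and 3.70 on negative arrays against 3.79 and 3.26 on positive ones, so these sums overlapped, while within each replicate number the positive array was lower. Without the globin gene Hba-a1 they were 2.07 and 1.36 against 2.89 and 2.27, higher on both positive arrays. Cd3e, by far the brightest of the other tested markers, makes up much of these last sums. It read 0.50 and -0.39 against 1.07 and 0.57 and did not pass in limma (adjusted p = 0.137). The part of the gate genes and of these markers in the results below was not tested. The processed signal at that percentile was 438 and 543 on negative arrays against 318 and 414 on positive ones. Of 59305 spots per array, 33506 and 33681 were well above background on negative arrays against 29631 and 30266 on positive ones. Fewer spots were thus detected on both positive arrays, and the part of this in the main scaling was not tested. The number of arrays limits the precision.

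Most polymerase genes read higher in IRF8-GFP positive LMPP. All 27 were well above background on all 4 arrays and all 27 were tested, none having entered through a single group. By limma with Benjamini-Hochberg adjustment over 22362 genes, 22 rose, 1 fell and 4 did not pass an adjusted p of 0.05. The median log2 difference of the 27 was 0.49, against 0.16 for all genes. Among all genes tested 59.9% were called, 38.5% higher and 21.4% lower. The arrays of the groups did not overlap for any of the 27, with the positive arrays on top in 26; over all genes 82.2% did not overlap, 52.4% with the positive arrays on top and 29.8% with them below. Arrays of 1 group lay close together for these genes, the median distance being 0.05 log2 units between the negative and 0.05 between the positive arrays. In sorted cells measured in bulk, a change in the share of cells that express a gene and a change in its RNA per cell cannot be told apart.

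**Figure D1:**
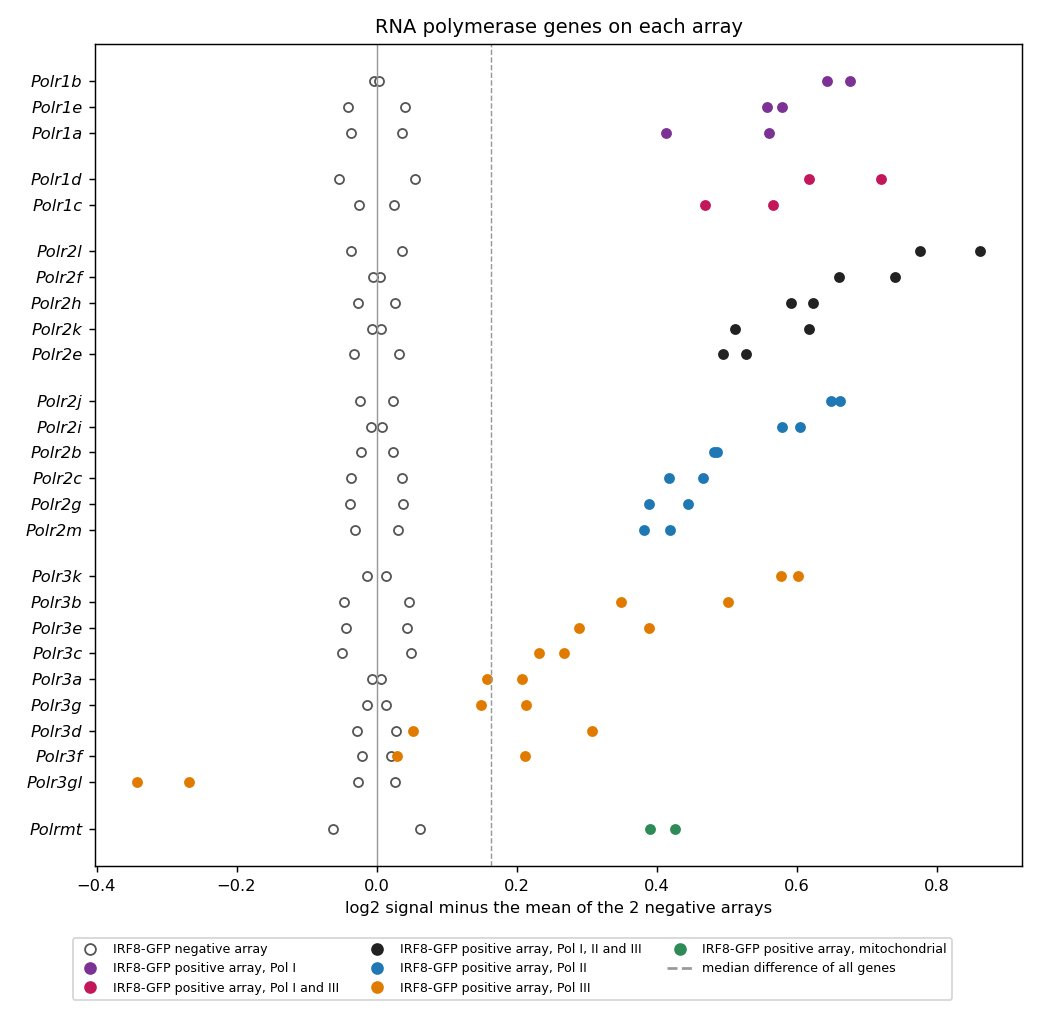
Log2 signal of the polymerase genes reported by name on the 4 arrays, each gene set to 0 at the mean of its 2 negative arrays (open circles) and coloured by polymerase on the positive arrays (filled circles). The positive arrays lie right of the dashed median of all genes (0.16) for every gene except Polr3a, Polr3g, Polr3d and Polr3f, where 1 of the 2 does not, and Polr3gl, the only gene whose positive arrays lie left of its negative ones.

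The size of these differences is set in part by how the arrays are scaled to each other. The median difference of all genes was 0.04 with quantile normalization and in the authors' deposited matrix values, 0.02 with cyclic loess, which evens out differences along the brightness scale, -0.07 when the percentile was taken over probes above background on all arrays, and -0.14 with spike-in scaling. Between 10 (cyclic loess) and 14 (percentile over detected probes) of the 27 polymerase genes were higher under these 5 scalings, and 1, Polr3gl, was lower under each. Setting each array's tested genes to a common median changed no call among the 27. Cyclic loess called 24.8% of all genes higher and 25.7% lower, and spike-in scaling 14.8% and 36.2%. These shares were 27.1% and 24.4% after quantile normalization, 27% and 24.5% for the authors' matrix, and 19.6% and 32.4% with the percentile over detected probes. Of the 22 genes that rose, 10 stayed past the threshold under all 16 alternatives tried, which include leaving out each array in turn, among them Polr1b, Polr1d, Polr1e, Polr2f, Polr2h, Polr2i, Polr2j, Polr2l and Polr3k. Leaving out an array leaves 1 in its group, which is then assumed to vary like the other group, so a call lost that way can come from fewer arrays rather than from a smaller difference.

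Brightness moved with the differences. In the brightest of 4 equal groups of genes 67.1% of genes were called higher and the median difference was 0.38, and in the next group 44.6% and 0.19. Of the polymerase genes 16 lay in the brightest group, 10 in the next and 1 (Polr3f) in the third. Within the brightest group the 6 Pol II genes had a median of 0.46, the 5 shared subunits 0.61 and the 2 subunits of Pol I and Pol III 0.59. In the second brightest group 2 Pol I genes had a median of 0.61 and 7 Pol III genes 0.25. Ranked among the differences of their brightness group, Polr2l lay at the percentile of 92.3, Polr1b at 90.2, Polr1e at 85.2, Polr2f at 84.3, Polr1d at 81.4 and Polr2j at 80.3. The Pol II genes spread from 52.8 (Polr2m) to 80.3 (Polr2j). Polr3gl lay at the percentile of 6.35 in its group. The part of brightness in these differences was not tested beyond cyclic loess.

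**Figure D2:**
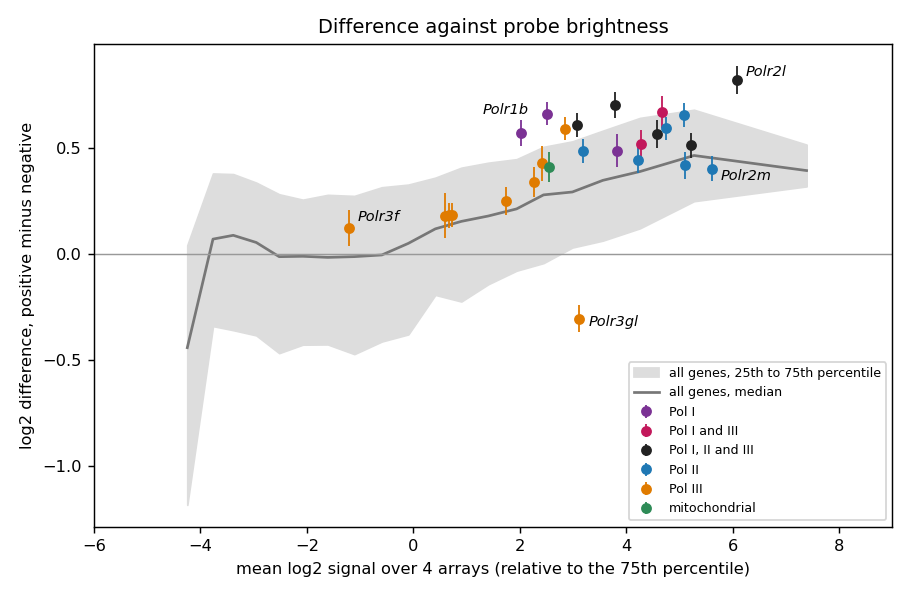
Log2 difference, positive minus negative (with its SE from limma), against mean log2 signal over the 4 arrays for the polymerase genes reported by name, coloured by polymerase. The grey line and band are the median and the 25th to 75th percentile of all 22362 genes in 20 bins of brightness. Among the labelled genes Polr2l and Polr1b lie above the band and Polr3gl lies below it, and unlabelled ones such as Polr1e and Polr2f also lie above it.

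All 3 genes specific to Pol I rose. Polr1b, which encodes the second largest and partly catalytic subunit, read 2.19 and 2.19 against 2.83 and 2.87. The log2 difference was 0.66 (SE 0.05, 1.58-fold, adjusted p = 0.00239). It lay between 0.35 and 0.68 over the alternatives and passed under each. Polr1e, a subunit of the heterodimer that resembles the Pol II initiation factor TFIIF, read 1.69 and 1.77 against 2.29 and 2.31. Its difference was 0.57 (SE 0.06, adjusted p = 0.00366), and its other probe gave 0.59. Polr1a, the largest catalytic subunit, read 3.55 and 3.62 against 4.001 and 4.15, with the positive arrays further apart than those of the other Pol I genes. The difference of 0.49 (SE 0.08, 1.4-fold, adjusted p = 0.00957) did not pass under any of the 5 other scalings (adjusted p of up to 0.194). It was 0.45 without negative replicate 1 (adjusted p = 0.0631) and 0.52 without negative replicate 2 (0.0501). Whether Polr1a and Polr1b differ from each other was not tested.

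The other Pol I subunits carry symbols outside the rule in the annotation used, and 4 such genes were followed, the Pol III subunit Crcp among them. All 4 rose in the main scaling, against 2 with quantile normalization, in the matrix values and with the percentile over detected probes. With cyclic loess 1 was higher and with spike-in scaling 0. Of all genes 38.5% were higher in the main scaling and 14.8% with spike-in scaling. Crcp had a log2 difference of 0.60 (SE 0.07, adjusted p = 0.00436) and lost its call with spike-in scaling alone. Twistnb, the Pol I stalk subunit, had 0.57 (SE 0.09, adjusted p = 0.00868), but its 3 probes ranged from 0.29 to 0.57. It passed in 10 of 16 alternatives, and its call was lost under 4 of the 5 other scalings and without negative replicate 1 or 2, at an adjusted p as high as 0.124. Cd3eap, the partner of Polr1e, had 0.35 and Znrd1, the Pol I subunit that takes part in RNA cleavage, 0.32. Znrd1 passed under none of the 5 other scalings. Cd3eap did not pass with spike-in scaling, with cyclic loess or with the percentile over detected probes. Neither gene passed without either negative array.

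Polr1c and Polr1d encode the pair of subunits on which both Pol I and Pol III assemble. Polr1d read 4.28 and 4.39 against 4.95 and 5.05, a log2 difference of 0.67 (SE 0.07, 1.59-fold, adjusted p = 0.004). Its dimmer probe gave 0.74, so both probes point the same way. Polr1c read 3.98 and 4.03 against 4.48 and 4.57, a difference of 0.52 (SE 0.07, 1.43-fold, adjusted p = 0.00527). This gene has 10 spots on each array, whose SD within an array was 0.03 to 0.04 log2 units. The lowest spot on either positive array read 4.40, above the highest on either negative array at 4.07. The Polr1c call was lost with cyclic loess, with quantile normalization and in the matrix values (adjusted p of up to 0.115), while Polr1d passed under all 16 alternatives.

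The 5 small subunits shared by all 3 nuclear polymerases all rose, by 0.51 to 0.82. Polr2l, which encodes a zinc-binding subunit of the assembly platform, had the largest difference of the 5. It read 5.63 and 5.71 against 6.45 and 6.53, a log2 difference of 0.82 (SE 0.07, 1.76-fold, adjusted p = 0.00234). A far dimmer probe with the same annotation gave 0.40, so the size for Polr2l depends on the probe, though not its direction. Polr2f, a subunit near the active site cleft, read 3.44 and 3.43 against 4.09 and 4.17, a difference of 0.70 (SE 0.06, 1.63-fold, adjusted p = 0.00256). Polr2h read 2.75 and 2.81 against 3.37 and 3.40, a difference of 0.61 (SE 0.06, adjusted p = 0.00295). Polr2k, the other small zinc-binding subunit, read 4.30 and 4.31 against 4.81 and 4.92, a difference of 0.56 (SE 0.07, adjusted p = 0.0043). Polr2e, which lies in the jaw that grips incoming DNA, read 4.93 and 4.998 against 5.46 and 5.49, a difference of 0.51 (SE 0.06, adjusted p = 0.00432), with 0.54 at its other probe. Polr2k lost its call with cyclic loess alone. Polr2e lost it with cyclic loess, with quantile normalization and in the matrix values, where its adjusted p reached 0.189.

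Among the 6 measured Pol II genes all rose in the main scaling. With spike-in scaling and cyclic loess 2 were higher, and 3 with quantile normalization, the matrix values and the percentile over detected probes. Polr2j and Polr2i passed under all 16 alternatives. Polr2j, which pairs with Polr2c to form the Pol II assembly platform, read 4.73 and 4.78 against 5.42 and 5.40. Its log2 difference was 0.66 (SE 0.06, 1.58-fold, adjusted p = 0.00254). Polr2i, a small subunit that affects transcript fidelity, read 4.46 and 4.44 against 5.03 and 5.05, a difference of 0.59 (SE 0.05, 1.51-fold, adjusted p = 0.00284), with 0.50 at its other probe. Both stayed above 0.20 under every alternative. Polr2b, the second largest subunit and the only measured part of the catalytic pair, read 2.93 and 2.97 against 3.44 and 3.43. Its difference of 0.48 (SE 0.06, 1.4-fold, adjusted p = 0.00426) was lost with spike-in scaling and cyclic loess (adjusted p of up to 0.0688).

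The other 3 Pol II genes had smaller differences of 0.40 to 0.44. Polr2c read 4.04 and 3.97 against 4.47 and 4.42, and Polr2g, a subunit of the stalk that binds the emerging RNA, read 4.86 and 4.93 against 5.34 and 5.29. Polr2m, whose protein Gdown1 associates with Pol II rather than forming part of its core, read 5.38 and 5.44 against 5.83 and 5.79. The adjusted p-values were 0.00663 for Polr2c, 0.00803 for Polr2g and 0.00755 for Polr2m. None of these passed under any of the 5 other scalings, and the sign of Polr2m turned under 3 of them, reaching -0.06. Without negative replicate 1 the calls of Polr2g (adjusted p = 0.0581) and Polr2m (0.0577) were lost, and without negative replicate 2 that of Polr2c (0.0515).

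**Figure D3:**
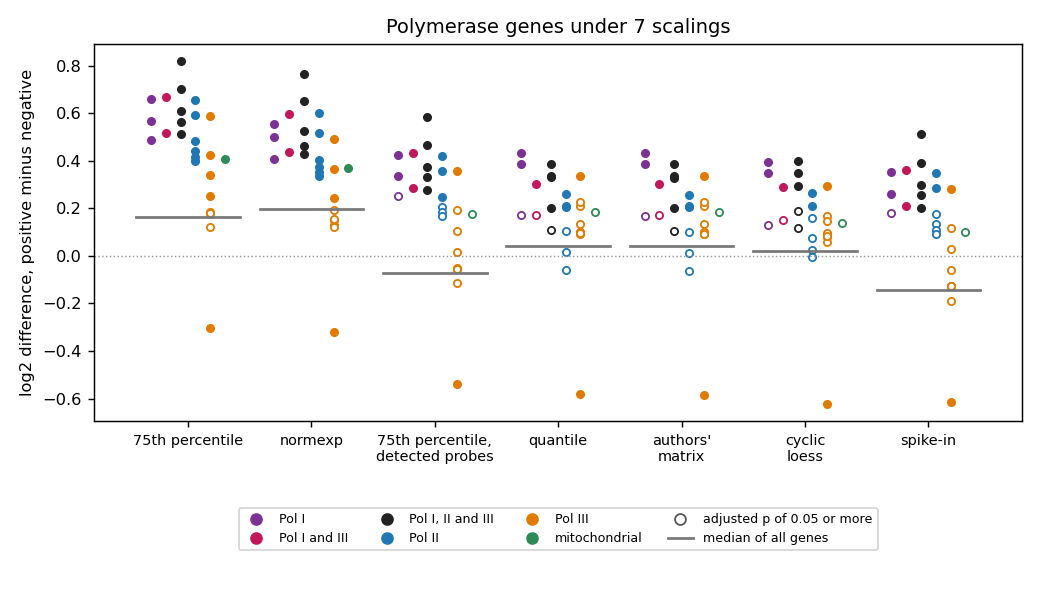
Log2 difference of the polymerase genes reported by name, positive minus negative, under 7 ways of scaling or background-correcting the arrays, coloured by polymerase; filled points passed an adjusted p of 0.05 in limma, open points did not, and the grey bars are the median of all genes. Polr3gl is the lowest point in every column, from -0.62 with cyclic loess to -0.30 in the main scaling.

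The 10 genes specific to Pol III did not move together. Of these 5 rose, 1 fell and 4 did not pass, with a median log2 difference of 0.22 that turned to -0.02 when the percentile was taken over detected probes and to -0.09 with spike-in scaling. Polr3k, the small subunit that cleaves RNA and takes part in termination, read 2.55 and 2.57 against 3.16 and 3.14, a difference of 0.59 (SE 0.05, 1.51-fold, adjusted p = 0.00289). Polr3k passed under all 16 alternatives.

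The catalytic pair of Pol III was split by the threshold. Polr3a, the largest subunit, read 0.65 and 0.63 against 0.85 and 0.80. Its difference of 0.18 (SE 0.06, adjusted p = 0.0512) lay 0.02 from the median of all genes. It turned to -0.05 with the percentile over detected probes and to -0.13 with spike-in scaling, and passed in 3 of 16 alternatives. Polr3b, the second largest, read 2.16 and 2.25 against 2.55 and 2.71, a difference of 0.43 (SE 0.08, 1.34-fold, adjusted p = 0.0153). Polr3b did not pass without negative replicate 1 (adjusted p = 0.0847) or 2 (0.0605), nor under the 5 other scalings. The difference between the 2 genes was not tested.

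Polr3d and Polr3e encode the Pol III pair that resembles TFIIF. Polr3e read 2.06 and 2.15 against 2.39 and 2.49, a difference of 0.34 (SE 0.07, adjusted p = 0.0189). A dimmer Polr3e probe gave 0.02 with an adjusted p of 0.764 in the fit over probes, and the gene's call was lost with the mean of its probes. It was also lost without negative replicate 1 (adjusted p = 0.101), negative replicate 2 (0.0679) or positive replicate 2 (0.0538). Polr3d read 0.53 and 0.47 against 0.81 and 0.55, a difference of 0.18 (SE 0.11, adjusted p = 0.21). The positive arrays of Polr3d were the furthest apart of any polymerase gene, and without positive replicate 2 the difference was 0.31 and passed (adjusted p = 0.0400).

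The initiation subcomplex of Pol III, which opens DNA and contacts its initiation factors, is formed by Polr3c, Polr3f and either Polr3g or Polr3gl. These last 2 genes encode alternative subunits, of which Polr3gl is the widespread form and Polr3g is known for high levels in pluripotent and tumour cells. Polr3gl was the only polymerase gene that fell. It read 3.29 and 3.24 against 2.93 and 2.999, a log2 difference of -0.30 (SE 0.06, 1.24-fold lower, adjusted p = 0.0177). Its dimmer probe read -0.51 and -0.49 against -0.79 and -0.74, a difference of -0.26. The difference was negative under all 16 alternatives, from -0.62 with cyclic loess to -0.27. The call was lost without negative replicate 1 (adjusted p = 0.101), negative replicate 2 (0.0771) or positive replicate 1 (0.0576). Polr3g read 0.57 and 0.60 against 0.73 and 0.80, a difference of 0.18 (SE 0.06, adjusted p = 0.0581) that turned to -0.05 with the percentile over detected probes and to -0.13 with spike-in scaling. Whether Polr3g and Polr3gl differ in their response was not tested. Both Polr3gl probes were lower on the positive arrays, whereas no direction can be given for Polr3g.

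**Figure D4:**
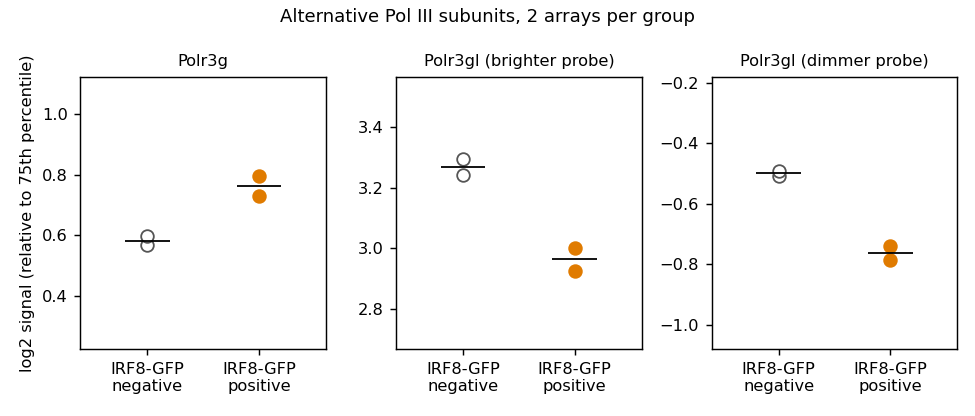
Log2 signal relative to the 75th percentile for the Polr3g probe and both Polr3gl probes on the 2 negative (open) and 2 positive (filled) arrays, with the group means as bars; each panel spans the same range. Both Polr3gl probes are lower on the positive arrays (differences of -0.30 and -0.26), while Polr3g lies 0.18 higher without passing the threshold.

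The promoters of the alternative subunit genes hold different motifs. The 250 bases before the annotated start (RefSeq, GRCm38.p6) are shown for both because Polr3gl alone fell: chr13:81711014-81711263 (minus strand) for Polr3g and chr3:96594182-96594431 (minus strand) for Polr3gl. Capitals mark in Polr3g the Ets factor motif CCGGAAG on the opposite strand, and in Polr3gl the E-box CACGTG of Myc-type factors, which begins 194 bases before the start, and the CCAAT box on either strand, which begins 24 and 6 bases before it. The E-box also lay in Polr3c, and CCAAT in Polr1a, Polr2c, Polr2i, Polr2j, Polr2m and Polr3k, all higher in the main scaling. Whether these motifs go with the differences was not tested.
Polr3g: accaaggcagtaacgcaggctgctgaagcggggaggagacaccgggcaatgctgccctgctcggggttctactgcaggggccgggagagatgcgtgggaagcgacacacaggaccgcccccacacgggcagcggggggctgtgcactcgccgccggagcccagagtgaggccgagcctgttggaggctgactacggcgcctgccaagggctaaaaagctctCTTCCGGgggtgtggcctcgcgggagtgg
Polr3gl: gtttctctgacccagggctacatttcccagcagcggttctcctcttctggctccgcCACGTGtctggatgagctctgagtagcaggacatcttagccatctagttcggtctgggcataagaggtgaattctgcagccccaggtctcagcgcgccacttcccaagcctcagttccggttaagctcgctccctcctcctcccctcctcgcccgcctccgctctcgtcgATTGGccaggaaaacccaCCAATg

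The remaining members of that subcomplex showed little. Polr3c read 1.67 and 1.57 against 1.89 and 1.85, a difference of 0.25 (SE 0.06, adjusted p = 0.0329). The Polr3c call was lost without any 1 of the 4 arrays, with adjusted p-values of 0.0804 and 0.160 without negative replicates 1 and 2 and 0.0974 and 0.0676 without positive replicates 1 and 2. Its sign turned with spike-in scaling (-0.06). Polr3f read -1.30 and -1.26 against -1.25 and -1.07, a difference of 0.12 (SE 0.08, adjusted p = 0.28), and its other probe gave 0.08. Polr3f passed in 0 of 16 alternatives, with values between -0.19 and 0.23, so no direction can be given for it.

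Polrmt, the mitochondrial RNA polymerase, rose in the main scaling. It read 2.28 and 2.40 against 2.77 and 2.73, a log2 difference of 0.41 (SE 0.07, 1.33-fold, adjusted p = 0.0112). It did not pass under the 5 other scalings, where it lay between 0.10 and 0.19, nor without negative replicate 1 (adjusted p = 0.0638). Its partners on mitochondrial DNA were followed as a list. Of 8 tested genes of mitochondrial transcription 4 rose, 0 fell and 4 did not pass, where 38.5% of all genes were higher and 21.4% lower. Tfb2m, which helps Polrmt open promoters, had 0.40, Tfam, which bends and packages the DNA, 0.39, and the related methyltransferase gene Tfb1m 0.37. The list's median of 0.19 lay near the 0.16 of all genes. With the percentile over detected probes and with spike-in scaling 0 of these genes were higher and 2 lower, and the median was negative.

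Factors that work with the nuclear polymerases were followed in 5 further lists, chosen for their role. Of all genes 38.5% were called higher and 21.4% lower in the main scaling. In the brightest group of genes 67.1% were higher, and in the next 44.6%. No list was tested against these shares, and the shares under other scalings are given above. Genes for the assembly and nuclear import of polymerases moved most. Of 10 tested 9 rose and 0 fell, with a median log2 difference of 0.55, and 6 were higher under each of the 5 other scalings. They were led by Ruvbl2, an ATPase of the chaperone complex that assembles Pol II (0.73, SE 0.09, adjusted p = 0.00556), the GTPase gene Gpn2 (0.63, SE 0.06, adjusted p = 0.00268) and Rpap3, which links chaperones to polymerase subunits (0.61, SE 0.06, adjusted p = 0.00289). The prefoldin-like gene Uri1, named here after its value was seen, had 0.08 and did not pass.

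Of 18 general transcription factors of Pol II 15 rose and 0 fell, with a median of 0.41, where 38.5% of all genes rose. Gtf2f2 (0.63, SE 0.06, adjusted p = 0.00335) and Gtf2f1 (0.60, SE 0.06, adjusted p = 0.00294), the subunits of TFIIF, and Gtf2e2 of TFIIE (0.50, SE 0.07) had the largest differences. Between 2 (spike-in scaling) and 8 (quantile normalization) of the 18 were higher under the 5 other scalings. Of all genes 14.8% and 27.1% were higher under these 2 scalings. Of 23 tested genes for pausing and elongation 15 rose, 1 fell and 7 did not pass, with a median of 0.38. Under the other scalings 10 were higher and 4 lower (quantile), 9 and 4 (cyclic loess, and the matrix values), 10 and 5 (percentile over detected probes), and 6 and 5 (spike-in). Ctr9, a scaffold of the PAF complex, rose 1.91-fold (log2 difference 0.94, SE 0.07, adjusted p = 0.00205) and Supt16, a subunit of the histone chaperone FACT, by 0.71 (SE 0.08, adjusted p = 0.00390), and both passed under all 16 alternatives. Ell2, an elongation factor, was at least 1.90-fold lower, since it was not well above background on the positive arrays (adjusted p = 0.00932). It entered the test through the negative arrays alone. It read -3.19 and -2.96 there, dim but brighter than on the positive arrays. Its call and its place in the count are therefore a description. That call was lost with normexp background correction, where the difference was -0.11, and without negative replicate 2.

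The Pol III initiation list resembled the Pol III subunits in being mixed. Among 16 tested genes 9 rose, 0 fell and 7 missed the threshold, where 38.5% of all genes were higher and 21.4% lower. The list's median was 0.25, or -0.06 under spike-in scaling. Higher and lower genes then numbered 2 and 3 (spike-in), 4 and 3 (cyclic loess), 5 and 2 (quantile, and the matrix values) and 3 and 0 (percentile over detected probes). Gtf3c6 (0.71, SE 0.07, adjusted p = 0.00289), a small subunit of TFIIIC, and Gtf3a (0.69, SE 0.07, adjusted p = 0.00345), which encodes the zinc finger protein TFIIIA of 5S genes, passed under all 16 alternatives. Gtf3c4 (0.49, SE 0.06, adjusted p = 0.00437) lost its call with spike-in scaling. Maf1, the repressor of Pol III, was named after its value was seen and had 0.09, not past the threshold. Of 6 tested Pol I initiation genes 4 rose and 0 fell, with a median of 0.30. Rrn3, which brings Pol I to its promoter, had 0.38 (SE 0.06, adjusted p = 0.0102), Ubtf 0.35 and Taf1d 0.31. These 3 passed under none of the 5 other scalings, and the sign turned for Ubtf under 3 of them and for Taf1d with spike-in scaling. Of the 6 genes 2 were higher with quantile normalization and in the matrix values, and 1 with cyclic loess. With the percentile over detected probes and with spike-in scaling 0 were higher. Taf1a, named after its value was seen, had 0.30 and passed under the first 3 of these scalings, while its sign turned with spike-in scaling. Ttf1 was above background on 0 arrays and was not tested.

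Promoter sequences were compared to see what the genes share besides function. RefSeq promoters of build GRCm38.p6 were matched by symbol for 22 of the 27 genes, and the 250 bases before the annotated start were searched on both strands for 8 motifs. An Ets factor motif, CCGGAAG, lay in the window of 6 of 22 genes (27.3%) and in 6.91% of 32841 promoters of all genes. Here and below a polymerase gene counts once over its promoters, 24 in all. The share of all promoters counts each promoter, whether or not its gene was tested. The median GC content was 59.4% in the polymerase promoters and 52.4% in all. The 6 genes were Polr1c, Polr2f, Polr2j, Polr3b, Polr3g and Polrmt. In the main scaling all of them but Polr3g rose, as did 22 of all 27 polymerase genes. Polr1c, Polr3b and Polrmt lost their calls with cyclic loess. Whether the motif goes with the differences was not tested. The 60 bases before each start are shown because the motif, in capitals, begins 11 to 43 bases before the start in all 6, reading CCGGAAG on the gene's strand or CTTCCGG on the opposite one. The windows are chr17:46248046-46248105 (minus strand) for Polr1c, chr15:79141265-79141324 (plus) for Polr2f, chr5:136116631-136116690 (plus) for Polr2j, chr10:84622238-84622297 (plus) for Polr3b, chr13:81711014-81711073 (minus) for Polr3g and chr10:79746582-79746641 (minus) for Polrmt.
Polr1c: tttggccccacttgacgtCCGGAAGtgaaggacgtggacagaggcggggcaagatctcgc
Polr2f: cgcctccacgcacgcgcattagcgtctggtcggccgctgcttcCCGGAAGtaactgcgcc
Polr2j: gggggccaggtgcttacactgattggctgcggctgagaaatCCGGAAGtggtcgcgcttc
Polr3b: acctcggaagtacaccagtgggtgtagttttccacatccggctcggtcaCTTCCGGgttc
Polr3g: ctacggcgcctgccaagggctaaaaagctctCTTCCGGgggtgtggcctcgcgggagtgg
Polrmt: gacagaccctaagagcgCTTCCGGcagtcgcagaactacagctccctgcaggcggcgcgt

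Among the other motifs, the E-box CACGTG lay in 2 of 22 genes, Polr3c and Polr3gl (9.09%, against 6.02% of all promoters), and CCAAT in 7 (31.8%, against 33.9%). The TATA letters TATAAA lay in 2, Polr2c and Polrmt (9.09%, against 12.4%). Motifs at which IRF8 can bind DNA were rare in all promoters. The composite of Ets and IRF factors (GGAA, any 2 bases, GAAA) lay in 2.3% of them and in 0 of 22 genes. The interferon-stimulated response element (GAAA, any 2 bases, GAAA) lay in 2.98% and in 0 of 22. With shares this small, 0 of 22 genes cannot be read as a lack of these motifs. The motifs of NRF1 and YY1 also lay in 0 of 22, and in 0.783% and 0.207% of all promoters. These are matches of letters in a short window, and no binding was measured.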

How the data were processed

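RNA of 4 LMPP samples was hybridised to 1-colour Agilent arrays on 1 slide. The deposited values are spot intensities that the authors extracted with Agilent Feature Extraction 10.7.3.1, per the file headers, and the processed signal used here is already background-corrected. The authors also deposited a table of normalized intensities on a linear scale, with a median of 31.9 and the same sorted values on every array. Its log2 was used as an alternative, and no label or header used here states how it was made. Sorted values that are the same on every array are what quantile normalization gives. Here log2 of the processed signal minus each array's 75th percentile was taken, control spots were left out and spots of a probe averaged. A gene was its brightest probe well above background on both arrays of at least 1 group, which left 22362 genes. Groups were compared with limma 3.58.1 in R 4.3.3 (lmFit and eBayes over both groups, Benjamini-Hochberg adjustment over all genes, threshold 0.05), after the script was tested on simulated data.

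Probes were named by accession through a RefSeq table of GRCm38.p6, used for names and promoter sequences only; 26756 probes have 1 symbol and 28913 none. The alternatives were 6 other scalings, normexp background correction, other filters, the mean of a gene's probes, an intensity trend, the replicate number as a block, and leaving out each array. All polymerase genes but 1, which is counted but not reported here, are named. Of each list of other factors up to 3 genes past the threshold with the largest differences are named, with the 4 subunits outside the symbol rule, and exceptions are stated. The members and lists were chosen with earlier results of these data known.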

Additional observations from a re-analysis of the deposited data

How the results depend on the processing

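With 2 arrays per group the calls rest on few degrees of freedom. Polr3f was the dimmest of the polymerase genes, though well above background on all 4 arrays. Groups are listed as Pol I, Pol I and III, shared by all 3 enzymes, Pol II, Pol III, and all polymerase genes. With quantile normalization the median log2 differences were 0.39, 0.24, 0.33, 0.15, 0.12 and 0.20; 12 polymerase genes were higher, among them 1 of Pol I and III, 3 of Pol II and 2 of Pol III, and Polr2m was -0.058. The authors' deposited matrix values gave the same counts, medians of 0.39, 0.24, 0.33, 0.15, 0.12 and 0.20, and -0.063 for Polr2m. With cyclic loess 5542 of all genes and 10 polymerase genes were higher (1 of Pol I and III, 3 shared, 2 of Pol II, 2 of Pol III), the medians were 0.35, 0.22, 0.29, 0.12, 0.093 and 0.15, and Polr2m was -0.0039. With the percentile over detected probes 4382 of all genes were higher and 7253 lower, 14 polymerase genes were higher (3 of Pol II, 2 of Pol III), the medians were 0.33, 0.36, 0.37, 0.23, -0.018 and 0.25, and that of all genes was -0.071. Polr3a was then -0.052, Polr3d -0.054, Polr3g -0.053 and Polr3f -0.11. With spike-in scaling 3299 of all genes were higher and 8099 lower, 13 polymerase genes were higher (2 of Pol II, 2 of Pol III), the medians were 0.26, 0.29, 0.30, 0.15, -0.092 and 0.18, and that of all genes was -0.14. Polr3a, Polr3d and Polr3g were then each -0.13, Polr3f -0.19 and Polr3c -0.058. Normexp gave medians of 0.50, 0.52, 0.53 and 0.39 for the first 4 groups and 0.41 for all polymerase genes. Without a filter 14564 of all genes were higher. The cause of these changes was not tested. Leaving out each array in turn gave medians of 0.53 to 0.61, 0.54 to 0.64, 0.58 to 0.63, 0.45 to 0.48, 0.20 to 0.28 and 0.47 to 0.53. Higher genes then numbered 2 to 3, 2, 5, 4 to 6, 2 to 4 and 15 to 21, lower Pol III genes 0 to 1, and of all genes 4760 to 8002 were higher and 2852 to 4772 lower. With the replicate block 22 polymerase genes were higher and 1 lower, as without it, and 9094 of all genes were higher and 4852 lower. The deviations of same-numbered arrays correlated at 0.097 over 22362 genes, and the labels do not say what the number marks, so it was not taken as a pairing. Replicate 2 had the higher 75th percentile signal in both groups (543 against 438, and 414 against 318).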
